A study of Rattus norvegicus with 8 samples.

Results

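The genes of the telomere were followed in primary rat nucleus pulposus (NP) cells, cells from the soft centre of the spinal disc, in which Sirt6 had been knocked down. The list held 10 genes, given by name, of which 6 encode the shelterin complex (Terf1, Terf2, Terf2ip, Tinf2, Acd and Pot1) and 4 encode proteins associated with telomerase or with telomere replication (Tep1, Dkc1, Rtel1 and Wrn). For 9 of the 10 a row was found by gene name in the deposited table of named genes, which holds rows whose 8 counts sum to more than 80, and all 9 passed the filter on low counts, among 13250 genes that did. No row carried the name Acd, so this gene was below the count filter of that table or listed under another name there, and it is not analysed here. The cells came from adult Sprague Dawley rats of 3 to 6 months, and the submitters give 4 rats as their source and speak of respective controls, so the groups may share rats, but no label says which libraries do. They were transduced with lentivirus carrying a mixture of 3 ShSirt6 clones (SIRT6KD/ShSirt6, called Sirt6-KD, libraries S5 to S8) or a control ShRNA (SIRT6Ctrl/ShCtrl, called Sirt6-Ctrl, libraries S1 to S4), were selected with puromycin, and were grown in DMEM with 10% serum. Both groups therefore share the virus and the selection, and the effects of the single clones in the mixture cannot be told apart.

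Telomeres are the repeated TTAGGG ends of chromosomes. Shelterin coats them and hides them from the DNA damage response, while telomerase adds repeats to compensate for the sequence lost at each replication. Short or unprotected telomeres are a known trigger of cell senescence, and SIRT6 is known as a deacetylase of histone H3 on telomeric chromatin, where it is needed in human fibroblasts for stable binding of the WRN helicase. The comparison asked how the transcripts of this machinery differ between NP cells with normal and with reduced Sirt6.

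The libraries held 31994838 to 40124813 counts. Synthetic ERCC spike-in RNAs took 2.97% to 9.80% of the counts in Sirt6-Ctrl, with S1 and S2 the highest, and 2.15% to 2.47% in Sirt6-KD. Sirt6 itself fell in every knockdown library, from 52.7 ± 3.78 to 20.6 ± 1.07 CPM (counts per 1e+06 counts, mean ± SD of 4 libraries each, log2 fold change -1.35, edgeR adjusted p = 0.000713, and -0.36 with spike-in scaling, or -1.31 relative to the median of all genes). Of 15 names listed as NP or notochord markers, 7 were measured (Krt8, Car12, Cd24, Foxf1, Pax1, Acan and Sox9), and no row was named Krt18, Krt19, T, Tbxt, Shh, Noto or Col2a1. Their summed level was 217 to 237 CPM in the controls and 209 to 233 CPM after knockdown, a sum of changes in opposite directions. Of the 7, 0 were called higher and 1 lower, against 8.02% and 10.7% of all genes. DESeq2 called 0 higher and 2 lower, against 10.9% and 11.8% of the genes it tested. Log2 fold changes were positive for 2 (Car12 1.53, edgeR adjusted p = 0.0776, and Sox9 0.48, edgeR adjusted p = 0.461) and negative for 5. Besides Krt8, the negative genes were Cd24 (-0.98, edgeR adjusted p = 0.0537), Acan (-0.62, 0.52), Pax1 (-0.43, 0.0459, a fold change under 1.5) and Foxf1 (-0.29, 0.258). The called gene Krt8, a keratin of NP cells, fell from 6.56 ± 3.07 to 2.63 ± 0.473 CPM (mean ± SD of 4 libraries each, log2 fold change -1.32, edgeR adjusted p = 0.0441, and -0.69 without S1 and S2, where the edgeR adjusted p was 0.205). Of 6 measured markers of annulus fibrosus and fibroblasts, 0 were called higher and 1 lower, against 8.02% and 10.7% of all genes. The called gene was Scx (log2 fold change -1.20, edgeR adjusted p = 0.049, and -1.37 without S1 and S2, where the edgeR adjusted p was 0.0841). The sum of these 6, most of it Col1a1, was 14023 to 26550 CPM in the controls and 9225 to 18587 CPM after knockdown, and 2 of the 6 had positive log2 fold changes (Col12a1 0.83 and Pdgfra 0.82, not called). The macrophage list had 3 of 7 genes measured, with a sum of 11.9 to 29.7 CPM in S1 to S4 and 15.0 to 23.8 CPM in S5 to S8, and of 5 endothelial markers none passed the filter (Tek had at most 21 reads in a library).

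Levels are given in CPM scaled between libraries by TMM, and differences as log2 fold changes (knockdown relative to control) with their standard errors (SE) from the quasi-likelihood test of edgeR. A call needed more than a 1.5-fold difference together with an adjusted p under 0.05. By this rule Tep1 and Wrn were called higher in Sirt6-KD and Terf2ip was called lower, and the other 6 measured genes (Terf1, Terf2, Tinf2, Pot1, Dkc1 and Rtel1) were not called. Among all genes tested, 8.02% were called higher and 10.7% lower. With edgeR, no further member passed when any fold change was allowed, where 9.11% of all genes were higher, 12.8% lower and 21.9% either. DESeq2 also called 2 members higher and 1 lower, against 10.9% and 11.8% of the genes it tested. Without S1 and S2, the libraries with the highest spike-in share, edgeR gave the same counts for the members. It then called 810 of all 14177 genes higher and 709 lower. The groups did not overlap in 4 of the 9 members (Tep1, Wrn, Terf2 and Terf2ip), against 30.4% of all genes. Scaled by the spike-ins instead, the typical gene shifted upward (median 0.94, log2) and edgeR called 0 of the 9 members and 0.181% of all genes. An unadjusted p below 0.05 was then found for 4 of the 9 and for 32.2% of all genes. In bulk RNA, fewer cells with a transcript and less transcript per cell cannot be told apart.

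**Figure D1:**
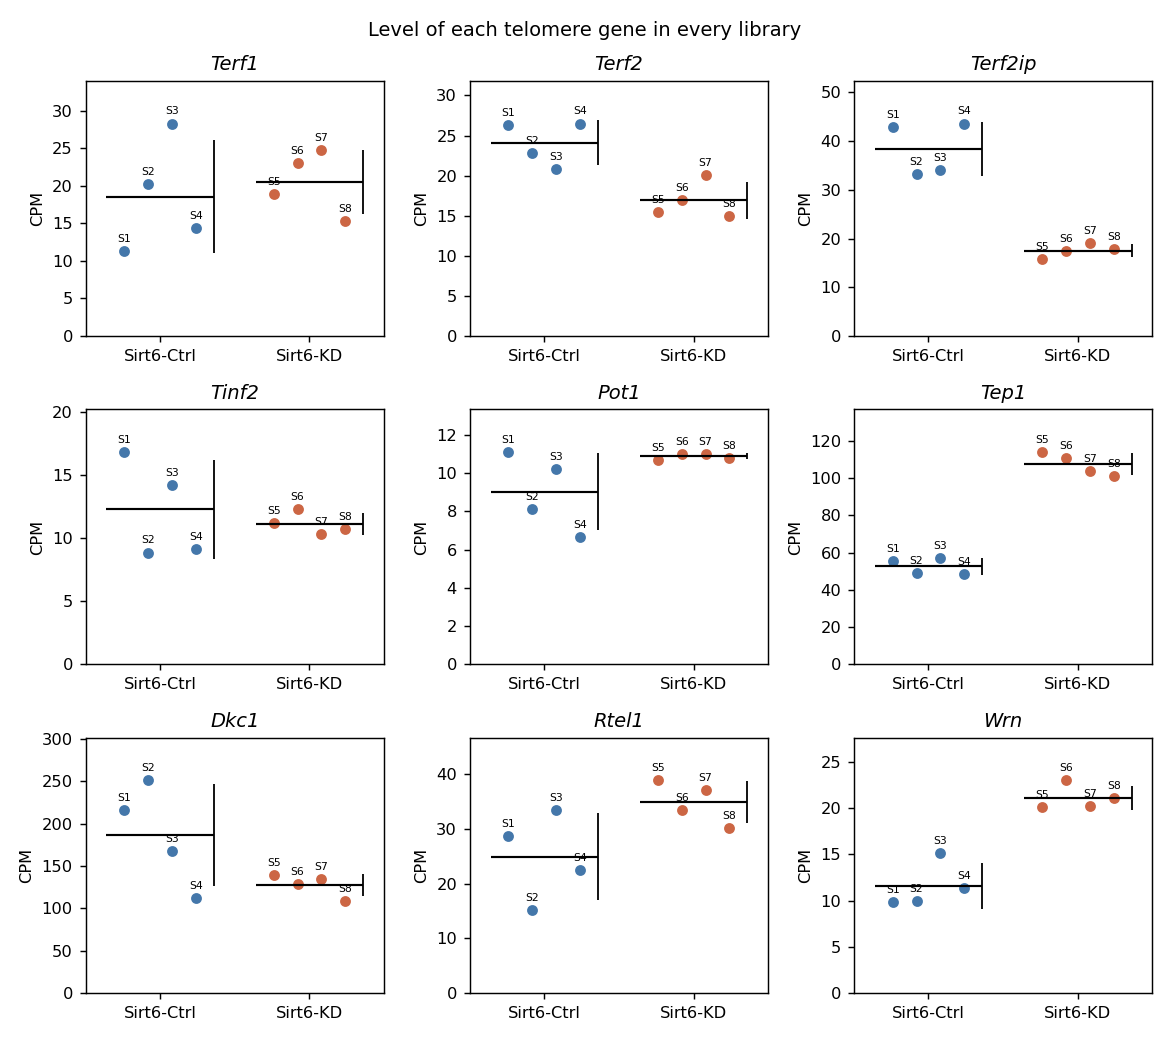
Level in CPM (vertical axis, TMM-scaled, from 0) of the 9 measured genes in each of the 8 libraries, with Sirt6-Ctrl in blue and Sirt6-KD in orange. Horizontal lines are group means and vertical lines the SD (n = 4). Tep1 and Wrn lay higher and Terf2ip lower in every Sirt6-KD library than in any Sirt6-Ctrl library, whereas the Terf1 libraries of both groups overlapped.

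The sequence before the start of Tep1 and Terf2ip is shown because these genes were called in opposite directions, and that of Terf2 because its protein binds the product of Terf2ip. RefSeq promoters (build GRCr8, whereas the submitters' processing notes name Rnor_6.0) were found for 7 of the 10 genes, Terf2, Terf2ip, Tinf2, Acd, Tep1, Dkc1 and Rtel1. The 250 bases before the annotated start are printed 5′ to 3′ on the strand of the gene, with matches to searched motifs in capitals.
Tep1, chr15:26567074-26567323, minus strand, GRCr8: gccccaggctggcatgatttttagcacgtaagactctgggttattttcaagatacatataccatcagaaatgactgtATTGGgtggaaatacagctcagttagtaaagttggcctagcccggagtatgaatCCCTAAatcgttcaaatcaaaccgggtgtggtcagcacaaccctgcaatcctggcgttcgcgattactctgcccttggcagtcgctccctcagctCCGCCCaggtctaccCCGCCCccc
Terf2ip, chr19:56885961-56886210, plus strand, GRCr8: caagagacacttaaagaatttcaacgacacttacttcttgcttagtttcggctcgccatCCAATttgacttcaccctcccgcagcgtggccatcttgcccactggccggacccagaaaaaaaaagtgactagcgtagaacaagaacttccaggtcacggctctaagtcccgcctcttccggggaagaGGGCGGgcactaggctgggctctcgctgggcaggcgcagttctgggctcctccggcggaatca
Terf2, chr19:51915449-51915698, minus strand, GRCr8: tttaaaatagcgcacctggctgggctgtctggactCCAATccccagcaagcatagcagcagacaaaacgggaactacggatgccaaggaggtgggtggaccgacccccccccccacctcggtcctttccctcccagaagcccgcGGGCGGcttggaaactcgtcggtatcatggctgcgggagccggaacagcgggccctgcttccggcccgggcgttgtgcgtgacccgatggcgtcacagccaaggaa

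Motifs were searched on both strands as exact letters, and no matches overlapped in the 7 windows. They were the E-box CACGTG, the GC box GGGCGG, the telomeric repeat TTAGGG, the CCAAT box CCAAT and the TATA box TATAAA. Of all 33469 promoters of this length, 5.59% held the E-box, 30.5% the GC box, 9.15% the telomeric repeat, 34% the CCAAT box and 12.9% the TATA box. Tep1 held 2 GC boxes, 24 and 9 bases before the start, a CCAAT box at 173 bases and 1 telomeric repeat at 119 bases, each on the opposite strand. Terf2ip held 1 GC box at 63 bases and 1 CCAAT box at 191 bases, and Terf2 1 GC box at 106 bases and 1 CCAAT box at 215 bases. The E-box was found in Dkc1, at 184 bases, and in Acd, at 51 bases, and none of the 7 windows held the TATA box. Among the 7, only Tep1 held the telomeric repeat. These are matches of letters and not binding sites.

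Terf2ip showed the largest fall of the shelterin genes measured. It encodes RAP1, which sits on telomeres through TRF2 and limits recombination at chromosome ends. Its level was 42.9, 33.2, 34.1 and 43.6 CPM in S1 to S4 and 15.8, 17.4, 19.0 and 17.9 CPM in S5 to S8. Each Sirt6-KD library was below each Sirt6-Ctrl library, and 15.6% of all genes showed no overlap, by any gap, in this direction. This was a log2 fold change of -1.13 (SE 0.16, adjusted p = 0.00302, edgeR), with a 95% interval from -1.49 to -0.77, or 0.456 of the control level. Omission of any 1 library gave -1.19 to -1.05. Scaled by spike-ins it was -0.19 (edgeR adjusted p = 0.778), or -1.14 when set against the all-gene median.

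Terf2 encodes TRF2, the protein that binds double-stranded repeats, brings RAP1 to the telomere and blocks end fusion. Its level was 26.3, 22.8, 20.8 and 26.5 CPM in Sirt6-Ctrl and 15.5, 17.0, 20.1 and 15.0 CPM in Sirt6-KD. The groups did not overlap, but S7 came close to S3. Its log2 fold change of -0.51 (SE 0.18, 95% interval -0.91 to -0.12) had an edgeR adjusted p of 0.0641 and was not called. DESeq2 gave -0.5 with an adjusted p of 0.028, a fold change under 1.5. Omission of any 1 library gave edgeR adjusted p values from 0.0393 to 0.192. Under spike-in scaling it was 0.46, or -0.49 relative to the median of all genes. A correction of each library for gene length was also made, with length taken as the span of the gene on the rat build GRCr8. Terf2 was then called lower, at -0.65 (edgeR adjusted p = 0.0382). Relative to the median of all genes it was -0.5, the same as before the correction.

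Terf1, Tinf2 and Pot1 showed no call, and their Sirt6-Ctrl libraries were more scattered than their Sirt6-KD libraries. Terf1 encodes TRF1, which also binds double-stranded repeats and regulates telomere length, and its level was 11.3, 20.3, 28.3 and 14.4 CPM in S1 to S4 and 18.9, 23.1, 24.8 and 15.3 CPM in S5 to S8. The controls ran from below the lowest to above the highest Sirt6-KD library. Terf1 had a log2 fold change of 0.15 (SE 0.29, adjusted p = 0.756, edgeR), with a 95% interval of -0.50 to 0.79, and without S1 it was -0.01. Tinf2 encodes TIN2, the bridge between the TRF proteins and the TPP1 and POT1 pair. It had 16.8, 8.85, 14.2 and 9.16 CPM in Sirt6-Ctrl and 10.3 to 12.3 CPM in Sirt6-KD. S1 and S3 lay above and S2 and S4 below all Sirt6-KD libraries, and the log2 fold change was -0.14 (SE 0.26, adjusted p = 0.74, edgeR), with an interval of -0.72 to 0.44. It was 0.08 without S1 and 0.81 with spike-in scaling, or -0.13 when set against the all-gene median. The span of Tinf2 overlaps that of Gmpr2 in the RefSeq annotation of GRCr8, whereas the submitters' notes name Rnor_6.0. Whether exons overlap was not examined, and reads of shared exons cannot be told apart without strand.

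Pot1 encodes the protein that covers the single-stranded overhang. Its level was 11.1, 8.10, 10.2 and 6.67 CPM in Sirt6-Ctrl and 10.7, 11.0, 11.0 and 10.8 CPM in Sirt6-KD. The Sirt6-KD libraries were nearly equal (coefficient of variation 1.59%, against 22.3% in Sirt6-Ctrl) and lay inside the control range. Pot1 had a log2 fold change of 0.27 (SE 0.24, adjusted p = 0.457, edgeR), with an interval of -0.26 to 0.80. After the correction for gene length it was -0.09, or 0.05 relative to the median of all genes. Rodents have a second POT1 gene, Pot1b, which was not on the list and was looked at after its row was seen. Pot1b had 133, 86, 57 and 26 reads in Sirt6-Ctrl and 57, 112, 89 and 52 in Sirt6-KD, with overlapping groups (log2 fold change 0.01, SE 0.62, adjusted p = 0.993, edgeR), and how reads shared by both genes were counted is not known, so both values are uncertain.

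Tep1 had the smallest p of the 9 genes and ranked 34 of 13250 by p. It encodes telomerase-associated protein 1, a large RNA-binding protein found with telomerase and in vault particles, which are cytoplasmic ribonucleoprotein shells. Its level was 55.4, 48.9, 57.3 and 48.7 CPM in S1 to S4 and 114, 111, 104 and 101 CPM in S5 to S8. Every Sirt6-KD library was above every Sirt6-Ctrl library, and 14.8% of all genes showed no overlap, by any gap, in this direction. Tep1 rose by 1.03 on the log2 scale (SE 0.12, adjusted p = 0.00143, edgeR), with an interval of 0.77 to 1.30, a 2.05-fold rise. Omission of any 1 library left the edgeR adjusted p between 0.000495 and 0.0121. The value was 0.74 after the correction for gene length (edgeR adjusted p = 0.00998) and 1.98 with spike-in scaling (edgeR adjusted p = 0.0744, 1.03 relative to the median of all genes). Mvp, which encodes the major vault protein, was called lower, with 117, 119, 70.7 and 85.5 CPM in S1 to S4 and 54.5 to 62.4 CPM in S5 to S8 (log2 fold change -0.77, SE 0.18, edgeR adjusted p = 0.0143). For Mvp the log2 fold change was -0.43 without S1 and S2, its highest libraries (edgeR adjusted p = 0.0548), and 0.34 with spike-in scaling, or -0.60 relative to the median of all genes. No row was named Parp4, the remaining vault gene listed.

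Wrn encodes a RecQ helicase and exonuclease that resolves structures at telomeres during replication and is mutated in Werner syndrome, a disorder of premature aging. Its level was 9.83, 9.96, 15.1 and 11.4 CPM in Sirt6-Ctrl and 20.1, 23.0, 20.2 and 21.1 CPM in Sirt6-KD. The highest control, S3, stayed below the lowest Sirt6-KD library. Wrn rose by 0.86 on the log2 scale (SE 0.20, adjusted p = 0.0162, edgeR), with an interval of 0.41 to 1.31, a 1.82-fold rise. Without S6 it was 0.82 with an edgeR adjusted p of 0.0614, and after the correction for gene length it was 0.32 with an edgeR adjusted p of 0.274, so the call was lost in both. With spike-in scaling it was 1.72 (edgeR adjusted p = 0.0885, 0.78 relative to the median of all genes).

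Rtel1 encodes a helicase that opens telomeric loops so that replication can pass. It had 28.7, 15.1, 33.4 and 22.5 CPM in Sirt6-Ctrl and 38.9, 33.4, 37.1 and 30.2 CPM in Sirt6-KD, so that S3 overlapped the Sirt6-KD libraries. Rtel1 had a log2 fold change of 0.49 (SE 0.23, adjusted p = 0.16, edgeR), with an interval of -0.03 to 1.0. In the RefSeq annotation the span of Rtel1 overlaps that of Stmn3, and the span of Wrn that of a long noncoding RNA. The span of Pot1 overlaps those of noncoding RNAs by 10, 61 and 62 bases. The values of Rtel1, Wrn and Pot1 carry the same limit as that of Tinf2. Of 10 listed markers of proliferation, 2 were called higher and 0 lower, against 8.02% and 10.7% of all genes. Their summed level was 146 to 241 CPM in the controls and 278 to 293 CPM after knockdown. The called genes were Mki67 (log2 fold change 1.79, edgeR adjusted p = 0.0199) and Mcm2 (0.61, edgeR adjusted p = 0.0242). In sign 8 of the 10 were positive and 2 negative, Pcna (-0.03) and Aurka (-0.31). The groups did not overlap for 6 higher and 0 lower, against 14.8% and 15.6% of all genes. DESeq2 called 3 higher and 0 lower, against 10.9% and 11.8% of the genes it tested. Without S1 and S2, Mki67 had 1.12 (edgeR adjusted p = 0.00362), Mcm2 0.52 (edgeR adjusted p = 0.0727) and Wrn 0.68 (edgeR adjusted p = 0.0409). The part of proliferation in the values of Wrn and Rtel1 was not tested.

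Dkc1 encodes dyskerin, which stabilises the telomerase RNA and modifies ribosomal RNA. Its level was 216, 251, 168 and 112 CPM in S1 to S4 and 139, 129, 134 and 109 CPM in S5 to S8. S1, S2 and S3 were above all Sirt6-KD libraries, whereas S4 lay among them. Dkc1 had a log2 fold change of -0.55 (SE 0.22, adjusted p = 0.0998, edgeR), with an interval of -1.03 to -0.06. It depended on which controls were kept: without S4 Dkc1 was called lower, at -0.73 (edgeR adjusted p = 0.016), and without S1 and S2, the libraries of highest spike-in share and highest Dkc1, it was -0.12 (edgeR adjusted p = 0.689). With spike-in scaling it was 0.61, or -0.34 relative to the median of all genes. The share of spike-ins moved with the control levels of Dkc1, and its part in them was not tested.

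**Figure D2:**
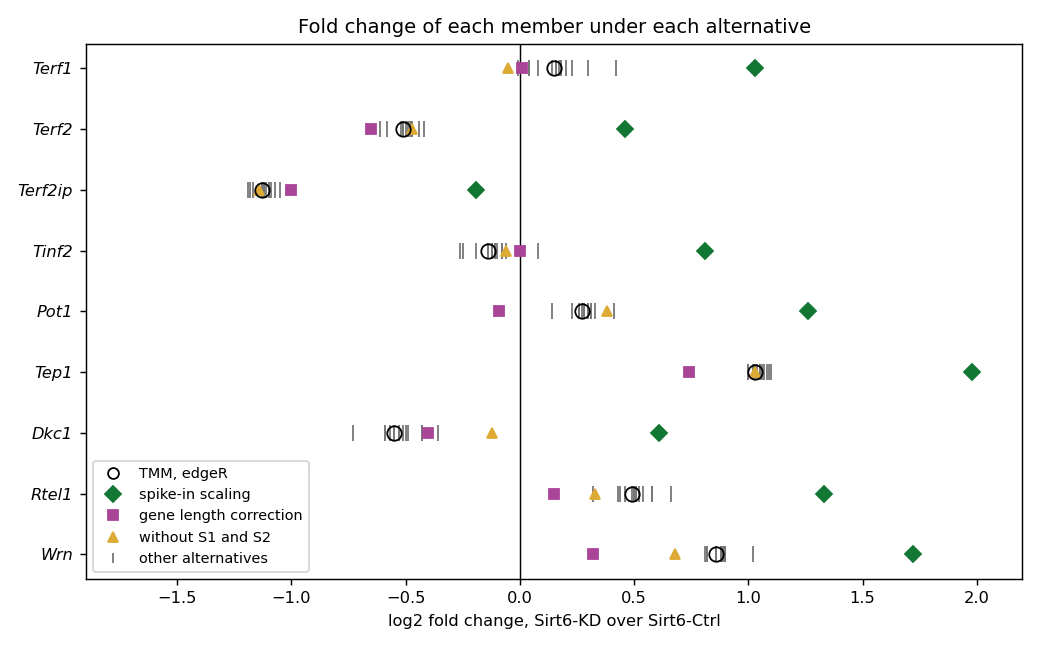
Log2 fold change, knockdown relative to control (horizontal axis), of each measured gene with TMM scaling and edgeR (open circles) and under each alternative. Green diamonds mark scaling by spike-ins, which moved all 9 genes to the right and took Terf2, Tinf2 and Dkc1 from below to above 0. Terf2ip stayed below 0 (-0.19) and Tep1 and Wrn above 0 under every alternative.

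The ratio of the reads of a pair of genes within a library can be compared between libraries without any scaling. Over the 36 pairs of the 9 genes, the log2 ratio did not overlap between the groups in 20, or 55.6%, against 25.7% of all pairs of genes tested. The pairs share genes and the genes were chosen with their changes known, so this is a description. Terf2 to Terf2ip, the partners TRF2 and RAP1, had log2 ratios of -0.71, -0.54, -0.71 and -0.72 in Sirt6-Ctrl and -0.03, -0.03, 0.08 and -0.25 in Sirt6-KD. The 4 control libraries were almost alike (-0.67 ± 0.08, SD) and all below the Sirt6-KD libraries (-0.06 ± 0.14, SD), a difference of 0.61. Terf2ip was lower after knockdown relative to each of the other 8 genes measured. The mean log2 ratio of Terf2ip differed by -1.04 against Tinf2, by -1.42 against Pot1, by -1.67 against Rtel1 and by -0.64 against Dkc1, the last with groups that overlapped, and that of Terf1 to Terf2ip by 1.33. The widest difference was that of Terf2ip to Tep1, from -0.46 ± 0.25 in the controls to -2.62 ± 0.18 after knockdown (mean ± SD of 4 libraries each). Tep1 to Wrn had a log2 ratio of 2.2 ± 0.25 in the controls and 2.35 ± 0.12 after knockdown (mean ± SD of 4 libraries each), with overlapping groups and a difference of 0.15.

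**Figure D3:**
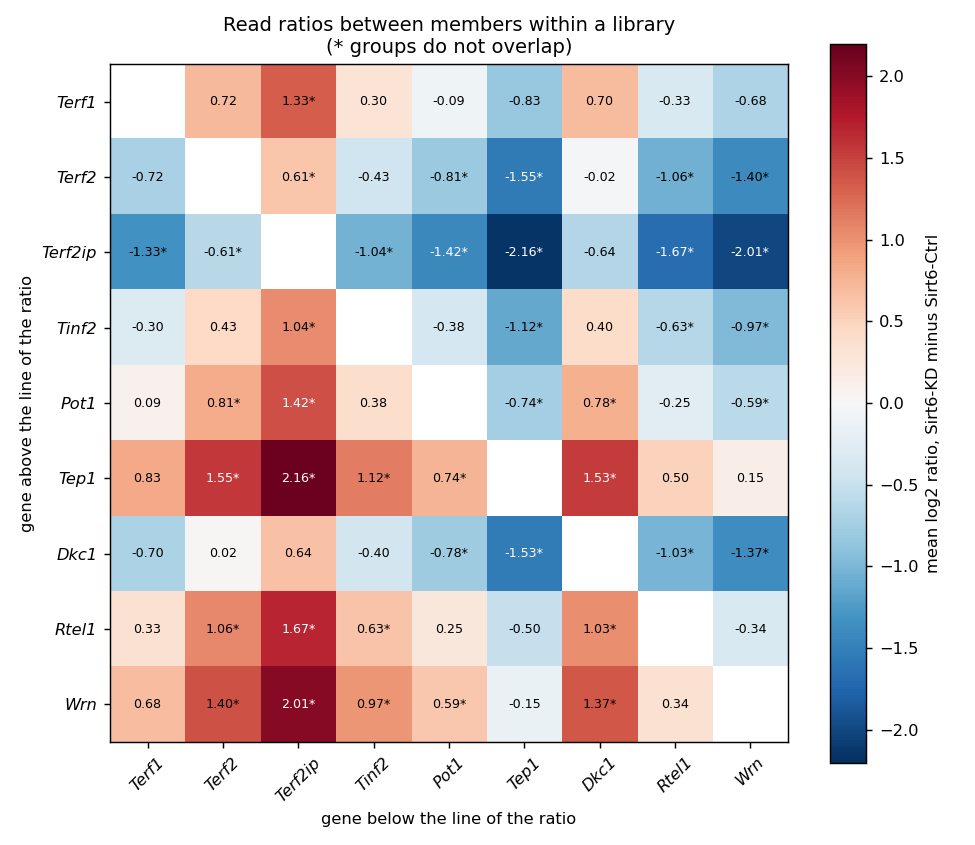
Difference between Sirt6-KD and Sirt6-Ctrl in the mean log2 ratio of reads of the row gene to the column gene within a library (colour and number, n = 4 per group), with an asterisk where the groups did not overlap. The Terf2ip row is negative throughout, to -2.16 against Tep1, the Tep1 row is positive throughout (0.15 against Wrn), and the Wrn row is positive except against Tep1.

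The members also differed in spread. The coefficient of variation was smaller in Sirt6-KD than in Sirt6-Ctrl for 8 of the 9 genes, Terf2 being the exception (13.6% against 11.5%), and its median was 22.3% in Sirt6-Ctrl and 7.81% in Sirt6-KD. The same direction held for 85.6% of all genes, close to the share among the members (88.9%). Each gene was also set beside the tested gene whose profile over the 8 libraries was nearest to it, by the root mean square distance between centred log2 CPM. This distance includes the difference between groups, so a similar fold change follows from the choice. For Tep1 the nearest was Rbsn (distance 0.068, log2 fold change 1.08), for Wrn Slc41a2 (0.078, 0.92), for Terf2ip Sc5d (0.085, -1.06) and for Dkc1 Nop53 (0.066, -0.54). For Terf1 it was Tgfbi (0.131, 0.17), for Terf2 Ttc17 (0.103, -0.53) and for Tinf2 Ctdp1 (0.107, -0.22). Pot1 was nearest to Nfx1 (0.085, 0.29) and Rtel1 to Dcaf5 (0.086, 0.53).

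The wider telomere machinery was described with 6 further lists that held 79 names, of which 70 passed the filter. Of these 70 genes, 3 were called higher and 2 lower by edgeR, against 18.7% of all genes in either direction. DESeq2 called 5 higher and 4 lower, against 10.9% and 11.8% of the genes it tested. Under spike-in scaling edgeR called 0 of them and 0.181% of all genes, with an unadjusted p below 0.05 for 35 of the 70 and for 32.2% of all genes. Their median log2 fold change was 0.21, and that of all genes -0.02. With edgeR, 12 had an unadjusted p below 0.05 in the higher and 5 in the lower direction, against 16.1% and 20.4% of all genes. The calls of Ctc1 and Daxx held both after the correction for gene length and without S1 and S2.

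Reads of telomerase itself were few. Tert, the reverse transcriptase, had 76, 1, 71 and 61 reads in S1 to S4 and 111, 17, 72 and 39 reads in S5 to S8. S2 and S6 were far below the other libraries of their groups, and the log2 fold change of 0.22 (SE 0.96, adjusted p = 0.895, edgeR) had an error wider than the difference. No row was named Terc, the telomerase RNA. Of the 13 genes measured for telomerase and its assembly, edgeR called 0, against 18.7% of all genes. DESeq2 called 0 higher and 2 lower, against 10.9% and 11.8% of the genes it tested. An unadjusted p below 0.05 with edgeR was found for 1 higher and 2 lower, against 16.1% and 20.4% of all genes. The lowest fold change was that of Pinx1, a telomerase inhibitor, with 24.5, 24.8, 8.98 and 16.9 CPM in S1 to S4 and 8.10 to 11.1 CPM in S5 to S8 (log2 fold change -0.93, edgeR adjusted p = 0.0568), and Nop10, a partner of dyskerin, had -0.85 (edgeR adjusted p = 0.0613). Pinx1 and Nop10 were chosen after their values were seen.

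The CST complex and its partner polymerase refill the C-rich strand. Of 7 genes for them, 1 was called higher and 0 lower, against 8.02% and 10.7% of all genes, and the called gene was Ctc1. It encodes the large subunit of CST and had 35.2, 34.8, 38.8 and 27.1 CPM in S1 to S4 and 59.7, 60.1, 57.8 and 51.5 CPM in S5 to S8, with groups well apart (log2 fold change 0.75, SE 0.15, adjusted p = 0.0085, edgeR). Stn1 and Ten1, the other subunits, were not called, with log2 fold changes of -0.51 and 0.43. Among 11 modifiers and partners of shelterin edgeR called 0, against 18.7% of all genes. DESeq2 also called 0, against 10.9% higher and 11.8% lower of the genes it tested. An unadjusted p below 0.05 in edgeR was found for 2 higher and 0 lower, against 16.1% and 20.4% of all genes. These 2 were Tnks1bp1 and Rif1. Both had an adjusted p below 0.05 with a fold change under 1.5 (log2 fold change 0.55, edgeR adjusted p = 0.0121, and 0.53, edgeR adjusted p = 0.042). For Rif1 the edgeR adjusted p was 0.372 after the correction for gene length, at 0.22, and 0.0859 without S1 and S2, at 0.41. Tnks, the tankyrase that releases TRF1 from telomeres, had 17.0, 2.69, 31.8 and 32.2 CPM in S1 to S4 and 34.5 to 39.5 CPM in S5 to S8. The groups did not overlap and the controls were widely scattered, with a log2 fold change of 0.82 (SE 0.54, adjusted p = 0.302, edgeR). Tnks was chosen after its values were seen.

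Of 13 helicases and nucleases of telomere replication, 0 were called higher and 1 lower, against 8.02% and 10.7% of all genes. Fen1, a flap nuclease of lagging strand synthesis, had 16.2, 33.1, 17.0 and 22.7 CPM in S1 to S4 and 9.91 to 12.3 CPM in S5 to S8 (log2 fold change -0.95, SE 0.25, edgeR adjusted p = 0.0252, and 0.13 with spike-in scaling, or -0.81 relative to the median of all genes). After the correction for gene length it was -0.78 (edgeR adjusted p = 0.0549). None of the other RecQ helicases measured was called, with log2 fold changes of 0.67 for Blm (edgeR adjusted p = 0.15), -0.59 for Recql (0.0618), -0.44 for Recql4 (0.306) and 0.15 for Recql5 (0.718), and their difference from Wrn was not tested. Of 14 genes of telomere chromatin and recombination, 1 was called higher (Cbx5) and 1 lower (Daxx), against 8.02% and 10.7% of all genes. Daxx, a histone H3.3 chaperone that works with ATRX, had 49.2 to 71.0 CPM in S1 to S4 and 27.2 to 38.0 CPM in S5 to S8 (log2 fold change -0.87, SE 0.18, edgeR adjusted p = 0.0109, and 0.22 with spike-in scaling, or -0.73 relative to the median of all genes). Its partner Atrx had a log2 fold change of 0.29 (edgeR adjusted p = 0.199). Cbx5, which encodes the heterochromatin protein HP1α, rose from 25.9 ± 3.84 to 41.8 ± 4.61 CPM (mean ± SD of 4 libraries each, log2 fold change 0.69, SE 0.16, edgeR adjusted p = 0.0158), but had 0.35 after the correction for gene length (edgeR adjusted p = 0.292). Of 12 genes that signal from unprotected ends, 1 was called higher and 0 lower, against 8.02% and 10.7% of all genes. Prkdc, the catalytic subunit of DNA-PK, rose from 6.03, 12.0, 11.4 and 12.0 CPM in S1 to S4 to 19.2 to 22.0 CPM in S5 to S8, or 1.0 on the log2 scale (SE 0.24, edgeR adjusted p = 0.0186). After the correction for gene length its log2 fold change was 0.30 (edgeR adjusted p = 0.499). Atm and Atr, kinases that respond to unprotected ends, had log2 fold changes of -0.08 and 0.59 and were not called by edgeR. Of the 12, DESeq2 called 3 higher and 0 lower, against 10.9% and 11.8% of the genes it tested. With edgeR, 4 higher and 0 lower had an unadjusted p below 0.05, against 16.1% and 20.4% of all genes.

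**Figure D4:**
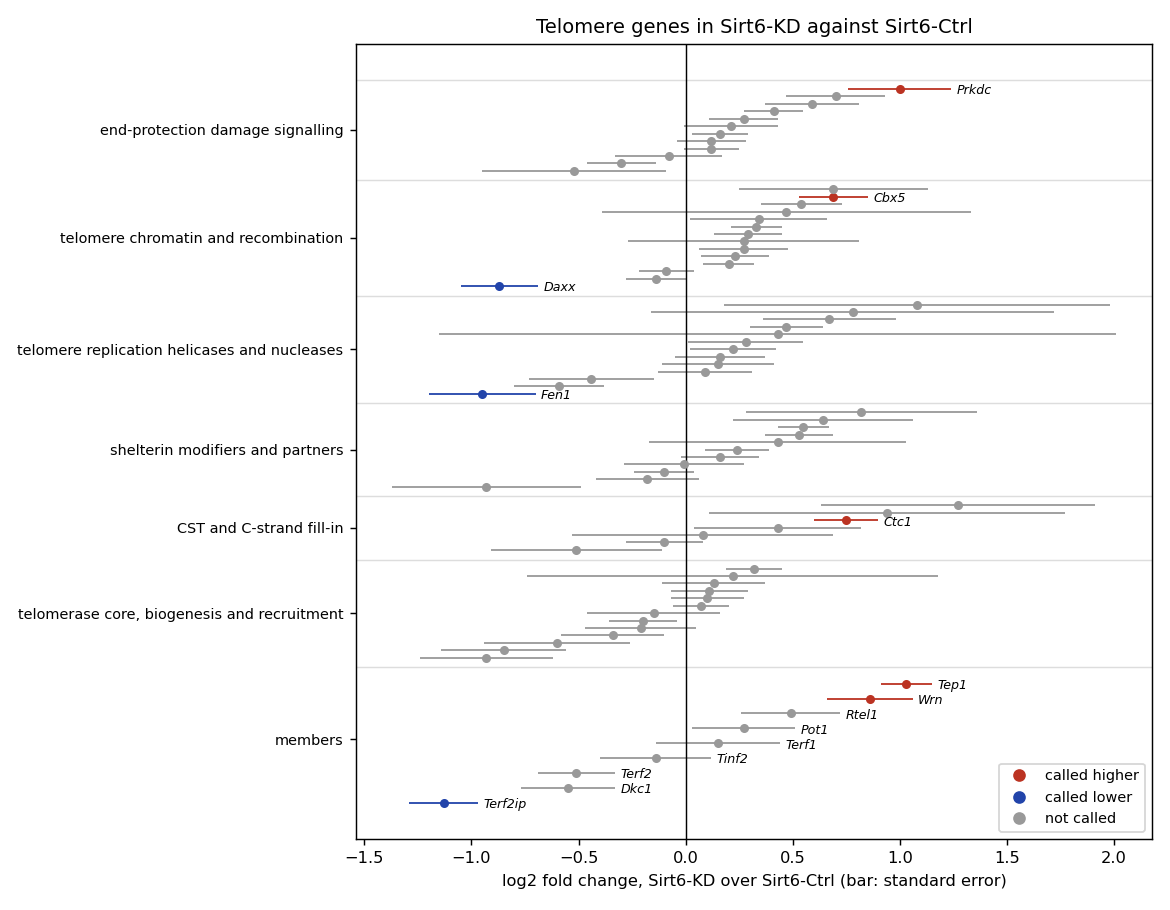
Log2 fold change, knockdown relative to control (horizontal axis, TMM scaling), with its standard error for the 9 measured members at the bottom and 70 further telomere genes grouped by list. Genes called higher are red, genes called lower blue and all others grey. Besides Tep1, Wrn and Terf2ip, the called genes were Ctc1, Cbx5 and Prkdc as higher and Fen1 and Daxx as lower, none of which was called with spike-in scaling, where Fen1 (0.13) and Daxx (0.22) were above 0.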

How the data were processed

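RNA-seq was performed on 4 Sirt6-Ctrl and 4 Sirt6-KD samples. The authors deposited unnormalized counts of reads for 32975 features, made up of Ensembl genes and ERCC spike-ins. The submitters' processing notes name Trimmomatic 0.36, STAR 2.5.2b, featureCounts, Subread 1.5.2 and DESeq2 with the build Rnor_6.0. A further table the authors deposited holds gene names, the signal of each library (counts divided by 1 size factor), and their own log2 fold changes and p-values. From it only the names were used. A repeated symbol was given its row of highest total count.

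Features kept by filterByExpr at its defaults (edgeR 4.0.16, R 4.3.3) numbered 13313, including 63 spike-ins. TMM factors and a two-sided quasi-likelihood test followed, and p-values were adjusted over all 13313 by Benjamini-Hochberg. Alternatives used DESeq2 1.42.0, limma 3.58.1 (voom), other filters and scalings, libraries left out, and a loess correction (span 0.5) for gene length, matched for 89.3% of genes. The series record speaks of respective controls, but no label pairs the libraries, so no pairing was used and p-values come from an unpaired test. The authors state 4 independent experiments for the RNA-seq, and the labels do not name the cell isolation of a sample. If the 4 samples of a group are not separate isolations, p-values measure only technical spread. A count of 3 was 0.0727 to 0.0928 CPM, a floor that covers counting error only.

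The members and lists were chosen with earlier results of these data known. The rule named all members, Sirt6, the gene nearest to each member, the called genes of each list, Tert and Terc. Other list genes (Stn1, Ten1, Pinx1, Nop10, Tnks, Tnks1bp1, Rif1, Blm, Recql, Recql4, Recql5, Atrx, Atm and Atr) were chosen after their values were seen. Markers given without a call (Car12, Sox9, Cd24, Acan, Pax1, Foxf1, Col12a1, Pdgfra, Tek, Pcna and Aurka) were also not named by the rule. The comparison of ratios was added after the data were seen.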

Additional observations from a re-analysis of the deposited data

Results flagged for a closer look

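Of 32 groups of 4 libraries examined (16 genes in both conditions), 2 held a library whose gap to its nearest neighbour passed Dixon's 95% critical value as a part of the range of the group, and chance gives about 1 in 20, or 2. The lowest Fen1 library in Sirt6-KD was S7, with a gap of 0.856 of the range, at 9.91 CPM against 12.0 to 12.3 CPM in the other libraries. In Sirt6-Ctrl, S1 was the lowest for Prkdc, with 0.897 of the range, at 6.03 CPM against 11.4 to 12.0 CPM. None of the 9 measured members held such a library.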

How the results depend on the processing

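Of the 9 members measured, Rtel1 stayed above 0 and uncalled under all 17 alternatives, from 0.15 to 1.33. Scaling by spike-ins left 0 members called higher, 0 called lower, 0 other telomere genes higher and 0 lower (edgeR), where 0.181% of all genes were called, with an unadjusted p below 0.05 for 4 of the 9, 35 of the 70 and 32.2% of all genes, and it turned Terf2 to 0.46, Tinf2 to 0.81 and Dkc1 to 0.61. Calls of Terf2ip, Tep1 and Wrn were lost there. The gene length correction, under which the median of all genes was -0.14, left 1 member higher (Tep1) and 2 lower (Terf2 and Terf2ip). It left 1 other telomere gene higher and 3 lower, and turned Pot1 to -0.09 and Tinf2 to 0.00. Of all 13250 genes, 643 were called higher and 1669 lower with this correction, against 1063 and 1416 without it. Other telomere genes called higher were 5 without a filter, 5 with DESeq2 (4 lower) and 5 without the fold threshold. Without S1 and S2 they were also 5, and Terf1 was -0.05. Of all genes, 1078 of 18758 were called higher without a filter and 1602 of 14660 with DESeq2 (1730 lower). Without the fold threshold it was 1207 of 13250, and without S1 and S2 it was 810 of 14177. With each library left out in turn, members called higher ranged from 1 (without S6, which lost Wrn) to 2. Members called lower ranged from 1 to 2 (without S4, which added Dkc1). Other telomere genes ranged from 1 to 8 higher and from 1 to 5 lower, with both maxima without S3. For the higher count the minimum came without S6, and for the lower count without S5, S6, S7 or S8. All genes called were also most without S3, at 1699 higher and 1913 lower of 13562. They were fewest without S6, at 445 higher and 700 lower of 13585. Without S4 they were 1096 higher and 1481 lower of 13542. With 1 library omitted, Terf1 ranged from -0.01 to 0.42 and Tinf2 from -0.26 to 0.08, with both turning without S1. The cause of these changes was not tested. No paired analysis was possible because the labels and columns carry no rat number shared between groups, although the series record speaks of respective controls, so pairing by rat could change the calls and was not tested. The 9 members had at least 262 reads in each library, and Tert had 1 to 111.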
